A study of Mus musculus with 12 samples.

Results

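The neural crest transcription factors examined here are 10 genes, Tfap2a, Tfap2b, Tfap2c, Sox9, Sox10, Foxd3, Snai1, Snai2, Ets1 and Twist1, chosen by name among the 53647 Ensembl gene IDs of a table of TPM values, a transcript abundance unit that divides by transcript length and gives every library the same total. Whole mouse embryos at embryonic day 9.5 had been X-irradiated in the pregnant mother with 30 Gy at 5 Gy per minute and were taken 1 h or 3 h later, or were left untreated. The 12 libraries of poly(A)-selected RNA form 6 groups of 2: embryos labelled p53 -/- (knockout) untreated, at 1 h and at 3 h, and embryos labelled p53 +/+ (wild type) untreated, at 1 h and at 3 h. Strain, sex, litter and the number of embryos in a library are not stated, so the spread between the 2 libraries of a group may be technical. The spread behind each p-value of the main fit is that between the libraries of a group, pooled over all 6 groups and moderated over the genes tested. In RNA from whole embryos, fewer cells of a type and less RNA per cell cannot be told apart.

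The neural crest is a population of cells that arises at the border of the neural plate, leaves the dorsal neural tube by an epithelial-to-mesenchymal transition, and migrates through the embryo to form sensory and autonomic neurons, glia, pigment cells and most of the skeleton and connective tissue of the face. Its formation is described as a sequence: WNT, BMP and FGF signals induce border genes, these together with AP-2 factors switch on specifier genes such as Foxd3, Sox9, Sox10, Snai1, Snai2 and Ets1, and later factors such as Twist1 act in crest-derived mesenchyme. In the mouse, crest cells are migrating through the head, branchial arches and trunk at the stage sampled. None of the 10 factors is restricted to the crest: AP-2 genes are also active in surface ectoderm, Sox9 in cartilage precursors and neural progenitors, Ets1 in endothelium, and Twist1 in mesoderm.

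Trp53, the gene that encodes p53, went against the genotype labels in most libraries. It stood at 265, 250 and 242 TPM in KO-labelled libraries numbered 1 at 0, 1 and 3 h, and at 79.1, 210 and 220 TPM in those numbered 2. WT-labelled libraries held 114, 114 and 93.7 TPM in those numbered 1 and 211, 66.8 and 68.0 TPM in those numbered 2. The 10 listed p53-responsive genes, among them Cdkn1a and Mdm2, summed to 2329 and 2611 TPM at 3 h in KO-labelled libraries, against 96.8 and 83.2 TPM in the untreated libraries of that label, while at 3 h in WT-labelled libraries they summed to 83.4 and 85.4 TPM, against 78.9 and 117 TPM untreated. KO-labelled and WT-labelled below therefore name the label only. The untreated libraries of each label differed in Trp53, so every comparison with untreated uses a mean of a higher and a lower Trp53 library. Both 1 h libraries numbered 2 also stood apart in the share of cytosolic ribosomal protein transcripts, 19.7% in the one labelled knockout and 19.6% in the one labelled wild type, against 11.9% to 14.2% in the other 10 libraries. TPM values keep no sequencing depth, so the counting error behind each value is unknown.

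All 10 factors were expressed above 1 TPM in at least 2 libraries. In the 4 untreated libraries Twist1 was the most abundant at 90.5 ± 4.77 TPM (SD, n = 4), followed by Snai1 at 50.3 ± 6.74, Ets1 at 34.9 ± 3.24, Sox9 at 29.9 ± 3.79, Sox10 at 23.5 ± 8.78, Tfap2a at 19.3 ± 4.43, Tfap2b at 16.0 ± 1.58, Snai2 at 11.2 ± 1.77, Tfap2c at 5.98 ± 0.514 and Foxd3 at 3.09 ± 0.526 TPM. The ranges of neighbours in this order did not overlap between Twist1 and Snai1, Snai1 and Ets1, Tfap2b and Snai2, Snai2 and Tfap2c, or Tfap2c and Foxd3. Ets1, Sox9, Sox10 and Tfap2a each overlapped with the next, although Tfap2a stood above Tfap2b within each of the 4 libraries. Snai1 stood above its paralog Snai2 in all 12 libraries, by a ratio of 2.26 to 7.90.

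**Figure D1:**
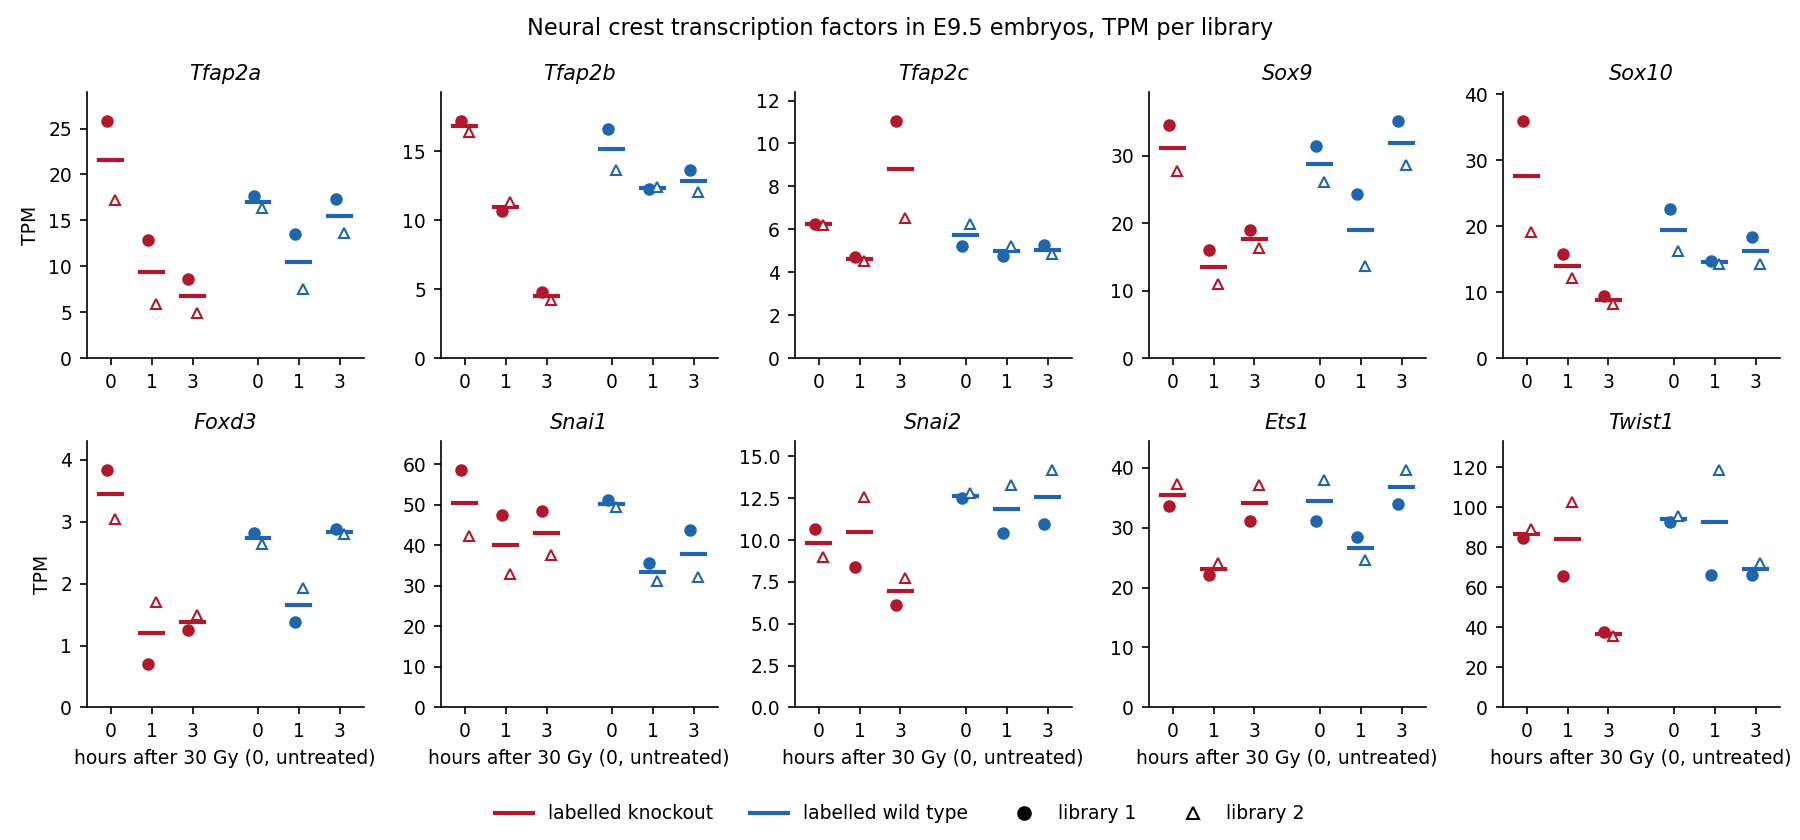
TPM of each of the 10 factors (linear axis from 0) against hours after 30 Gy, with the KO-labelled libraries on the left (red) and the WT-labelled ones on the right (blue); filled circles are libraries numbered 1, open triangles libraries numbered 2, and bars the mean of the 2 libraries. Tfap2b, Sox10 and Twist1 are lower at 3 h in the KO label than in any other group, and Sox9 and Ets1 dip at 1 h in both labels.

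The question put to each factor was how its transcript changed 1 h and 3 h after irradiation within each label, and whether the change differed between labels. At 3 h, 5 of the 10 factors fell in KO-labelled libraries (Tfap2a, Tfap2b, Sox10, Foxd3 and Twist1; limma on log2(TPM + 1), Benjamini-Hochberg adjusted p under 0.05 over 15535 genes), against a background of 12.1% of all genes tested that changed in either direction. None of the 10 rose, and the changes of 9 lay below 0. Their median log2 fold change was -0.84, against -0.12 for all genes tested. With size factors in place of the deposited scaling, the median of all genes moved up by 0.12 on the log2 scale in this comparison, by 0.16 in the comparison of the labels at 3 h and by 0.14 in the difference of the 3 h responses.

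Tfap2b (ENSMUSG00000025927), an AP-2 factor expressed in premigratory and migratory crest and later needed for kidney development and closure of the ductus arteriosus, fell most. In KO-labelled libraries it stood at 17.2 and 16.4 TPM untreated, 10.7 and 11.3 TPM at 1 h, and 4.81 and 4.20 TPM at 3 h. WT-labelled libraries held 16.6 and 13.7 TPM untreated, 12.3 and 12.4 TPM at 1 h, and 13.6 and 12.0 TPM at 3 h. The groups of the KO label stepped down without overlap at each time. In the WT label the irradiated libraries were also below both untreated ones. There the 1 h and 3 h libraries overlapped, and all 6 values lay between 12.0 and 16.6 TPM. The log2 fold change at 3 h against untreated was -1.70 (SE 0.158, limma adjusted p = 0.000288) in the KO label, and -0.22 (SE 0.158, adjusted p = 1) in the WT label. The fall at 3 h in the KO label passed under all 21 alternative settings, from -1.88 to -1.58.

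Tfap2a (ENSMUSG00000021359), an AP-2 factor needed for cranial closure and facial development in the mouse, fell with a wider spread. It stood at 25.9 and 17.3 TPM untreated, 12.8 and 5.94 TPM at 1 h, and 8.61 and 4.92 TPM at 3 h in KO-labelled libraries. WT-labelled libraries held 17.7 and 16.3 TPM untreated, 13.5 and 7.49 TPM at 1 h, and 17.3 and 13.6 TPM at 3 h. Irradiated and untreated KO-labelled libraries did not overlap, while the 1 h and 3 h libraries of that label did. The fold change at 3 h in the KO label was -1.55 (log2, SE 0.404, limma adjusted p = 0.0395). It lost its call without any 1 of the 8 untreated and 3 h libraries of either label, with adjusted p between 0.0633 and 0.213 and log2 fold changes from -1.90 to -1.20. Without any 1 of the WT-labelled libraries among these the fold change itself stayed at -1.55. The call was also lost with size factors (limma adjusted p = 0.102), with quantile normalization (0.0874) and without a filter on low values (0.0696).

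Tfap2c (ENSMUSG00000028640), the third AP-2 gene measured, which marks surface ectoderm and trophoblast as well as the neural plate border, did not follow the other 2. It stood at 6.25 and 6.21 TPM untreated, 4.69 and 4.52 TPM at 1 h, and 11.1 and 6.54 TPM at 3 h in KO-labelled libraries. In WT-labelled libraries all 6 values lay between 4.74 and 6.25 TPM. Both 3 h KO-labelled libraries were above all the others, but they differed from each other more than any other pair, and the fold change against untreated was 0.40 (log2, SE 0.226, limma adjusted p = 0.326).

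As a share of the summed TPM of these 3 AP-2 genes, Tfap2c made up 45.2% and 41.8% at 3 h in KO-labelled libraries, against 12.7% and 15.6% untreated in that label and 12.7% to 20.8% over all 10 other libraries. The sum of the 3 genes was 24.5 and 15.7 TPM at 3 h in KO-labelled libraries, against 49.4 and 39.9 TPM in the untreated libraries of that label. Of the 12 listed surface ectoderm and placode markers, Grhl3 and Krt5, an epidermal regulator and a basal keratin, rose at 3 h in the KO label. Esrp1, an epithelial splicing factor, fell, and 12.1% of all genes were called in that comparison with untreated. Esrp1 was not called without the untreated library numbered 1 or the 3 h library numbered 1 of that label. Grhl3 stood at 12.8 and 16.7 TPM at 3 h, against 2.03 and 2.08 TPM untreated, and Krt5 at 11.3 and 10.2 TPM, against 1.99 and 1.17 TPM. The sum of the 12 markers overlapped between the groups, at 274 and 439 TPM at 3 h and 322 and 386 TPM untreated, and its part in the Tfap2c values was not tested.

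**Figure D2:**
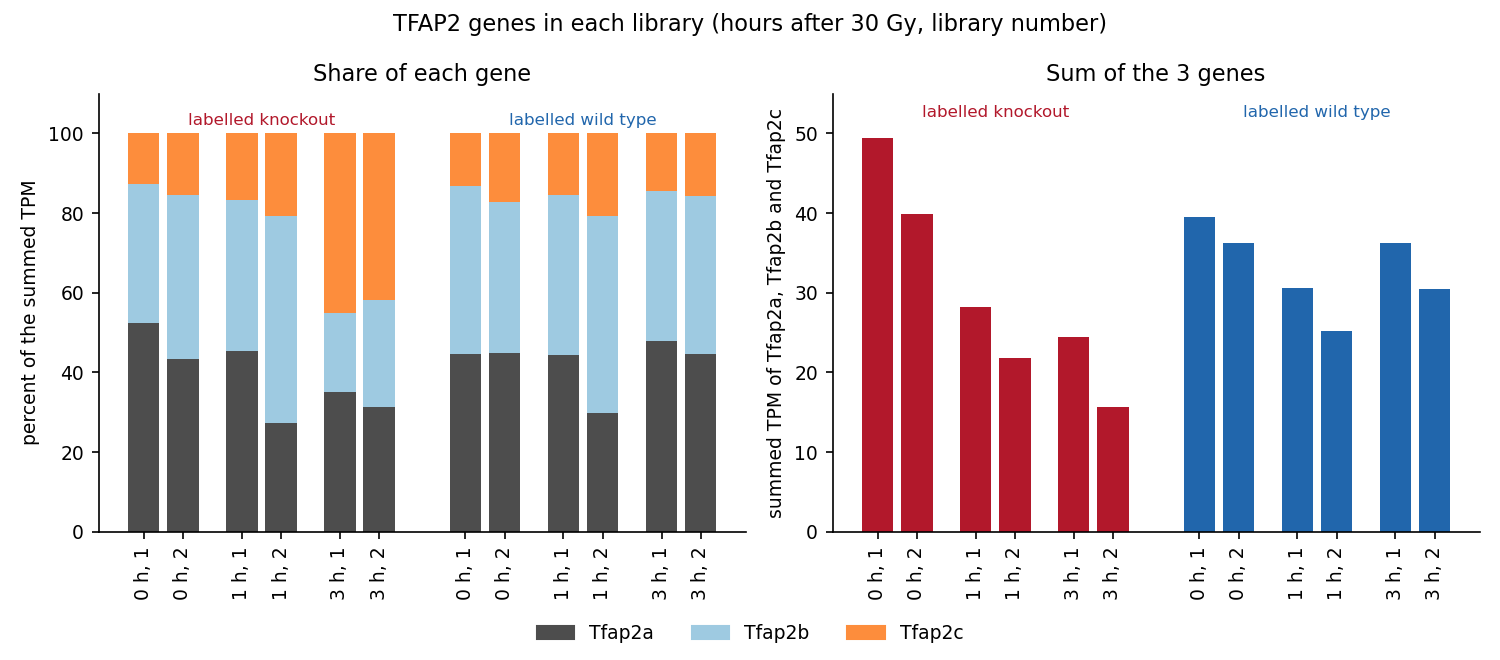
Left, percent of the summed TPM of Tfap2a, Tfap2b and Tfap2c contributed by each gene in each of the 12 libraries; right, that sum in TPM. Labels under the bars give hours after 30 Gy (0 is untreated) and the library number, with the KO label left of the WT label. The Tfap2c share is 45.2% and 41.8% in 3 h KO-labelled libraries and at most 20.8% elsewhere.

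Among the SoxE factors, Sox10 (ENSMUSG00000033006), which maintains migratory crest and its glial and pigment lineages, fell at 3 h in the KO label. It stood at 36.0 and 19.1 TPM untreated, 15.8 and 12.2 TPM at 1 h, and 9.44 and 8.19 TPM at 3 h in KO-labelled libraries. WT-labelled libraries held 22.6 and 16.2 TPM untreated, 14.8 and 14.2 TPM at 1 h, and 18.3 and 14.2 TPM at 3 h. The 3 h KO-labelled libraries held the lowest values of all 12, and the untreated KO-labelled library numbered 1 the highest. The fold change at 3 h in the KO label was -1.48 (log2, SE 0.300, limma adjusted p = 0.0149). It lost its call without that untreated library or either 3 h KO-labelled library, with adjusted p between 0.0681 and 0.0884.

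Sox9 (ENSMUSG00000000567), which acts in premigratory crest and then in cartilage formation, was lowest at 1 h. In KO-labelled libraries it stood at 34.5 and 27.7 TPM untreated, 15.9 and 10.9 TPM at 1 h, and 19.0 and 16.4 TPM at 3 h. WT-labelled libraries held 31.4 and 26.1 TPM untreated, 24.3 and 13.7 TPM at 1 h, and 35.2 and 28.6 TPM at 3 h. Its 1 h libraries did not overlap with the untreated ones in either label, and at 3 h only the KO-labelled libraries were below all untreated ones. The fold change at 3 h in the KO label was -0.78 (log2, SE 0.287, limma adjusted p = 0.128), and the fit with the library number as a block called it (adjusted p = 0.00667). The ratio of Sox9 to Sox10 was 2.01 and 2.00 at 3 h in KO-labelled libraries and 1.93 and 2.01 at 3 h in WT-labelled ones, against 0.900 to 1.65 in the 8 untreated and 1 h libraries.

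Foxd3 (ENSMUSG00000067261), a forkhead factor that maintains crest progenitors, was the least abundant of the 10. It stood at 3.84 and 3.05 TPM untreated, 0.700 and 1.70 TPM at 1 h, and 1.25 and 1.50 TPM at 3 h in KO-labelled libraries. WT-labelled libraries held 2.82 and 2.65 TPM untreated, 1.38 and 1.93 TPM at 1 h, and 2.88 and 2.80 TPM at 3 h. All 1 h libraries of both labels and both 3 h KO-labelled libraries were below every other library. The fold change at 3 h in the KO label was -0.90 (log2, SE 0.243, limma adjusted p = 0.0460). With a pseudocount of 0.1 it was -1.26 and not called (adjusted p = 0.0743), nor was it without a filter on low values (0.0987). Without any 1 WT-labelled library the fold change itself stayed at -0.90. The call was lost without any 1 of the 12 libraries other than the 1 h KO-labelled libraries, with adjusted p between 0.0554 and 0.215.

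The Snail genes, zinc-finger repressors of E-cadherin that act in epithelial-to-mesenchymal transition, did not pass the test in any of the 11 comparisons. Snai2 passed between the labels at 3 h with the library number as a block and with quantile normalization. Snai1 (ENSMUSG00000042821) stood at 58.6 and 42.2 TPM untreated, 47.5 and 32.8 TPM at 1 h, and 48.4 and 37.6 TPM at 3 h in KO-labelled libraries. WT-labelled libraries held 51.1 and 49.4 TPM untreated, 35.6 and 31.2 TPM at 1 h, and 43.7 and 32.1 TPM at 3 h. The groups of the KO label overlapped throughout, with the library numbered 1 above that numbered 2 at each time, and in the WT label both untreated libraries were above the irradiated ones. At 3 h in the KO label its log2 fold change was -0.22 (95% interval -0.79 to 0.35, limma adjusted p = 0.691), which turned to 0.02 without the untreated KO-labelled library numbered 1.

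Snai2 (ENSMUSG00000022676), which in chick and frog marks crest cells about to leave the neural tube, was lowest at 3 h in the KO label. It stood at 10.6 and 9.00 TPM untreated, 8.38 and 12.6 TPM at 1 h, and 6.12 and 7.74 TPM at 3 h in KO-labelled libraries. In WT-labelled libraries all 6 values lay between 10.4 and 14.2 TPM. The 3 h KO-labelled libraries were below all 10 others, and the fold change against untreated was -0.45 (log2, 95% interval -0.99 to 0.08, limma adjusted p = 0.283).

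Ets1 (ENSMUSG00000032035), an ETS-domain factor of endothelium and of cranial crest, was low at 1 h and not at 3 h. In KO-labelled libraries it stood at 33.5 and 37.2 TPM untreated, 22.0 and 24.0 TPM at 1 h, and 31.1 and 37.1 TPM at 3 h. WT-labelled libraries held 31.0 and 37.9 TPM untreated, 28.4 and 24.7 TPM at 1 h, and 33.9 and 39.6 TPM at 3 h. All 4 libraries at 1 h were below the other 8. The log2 fold change at 3 h in the KO label was -0.06 (95% interval -0.45 to 0.34, limma adjusted p = 0.914), and its sign turned with size factors (0.08), with quantile normalization (0.08) and without the untreated library numbered 2 (0.02) or the 3 h library numbered 1 (0.07) of that label. The 12 listed endothelial markers summed to 358 and 393 TPM at 3 h in KO-labelled libraries, against 291 and 274 TPM untreated in that label. Pecam1 and Sox18 were called higher of the 12, against 6.25% of all genes called higher. Neither was called without any 1 untreated or 3 h library of either label, other than the untreated KO-labelled library numbered 1, without which 1 was called, and their part in the Ets1 values was not tested.

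Twist1 (ENSMUSG00000035799), a basic helix-loop-helix factor of cranial mesenchyme, stood at 84.5 and 89.2 TPM untreated, 65.8 and 102 TPM at 1 h, and 37.9 and 35.5 TPM at 3 h in KO-labelled libraries. WT-labelled libraries held 92.6 and 95.6 TPM untreated, 66.4 and 119 TPM at 1 h, and 66.1 and 72.3 TPM at 3 h. The 3 h KO-labelled libraries were below the other 10, and in both labels the 1 h libraries lay on either side of the untreated ones. The fold change at 3 h in the KO label was -1.22 (log2, SE 0.281, limma adjusted p = 0.0249). It lost its call without any 1 of the 4 untreated and 3 h KO-labelled libraries, with adjusted p between 0.103 and 0.118 and log2 fold changes from -1.27 to -1.18. Twist1 is also a gene of mesoderm: of 11 tested markers of paraxial and lateral mesoderm 6 fell and 1 rose (Mesp2; 3 called without the untreated library numbered 2 or the 3 h library numbered 1 of the KO label), with a summed level of 89.5 and 84.3 TPM at 3 h in KO-labelled libraries, against 156 and 137 TPM untreated. Of all genes tested, 12.1% were called at 3 h against untreated in the KO label. The part of these mesoderm markers in the Twist1 values was not tested.

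**Figure D3:**
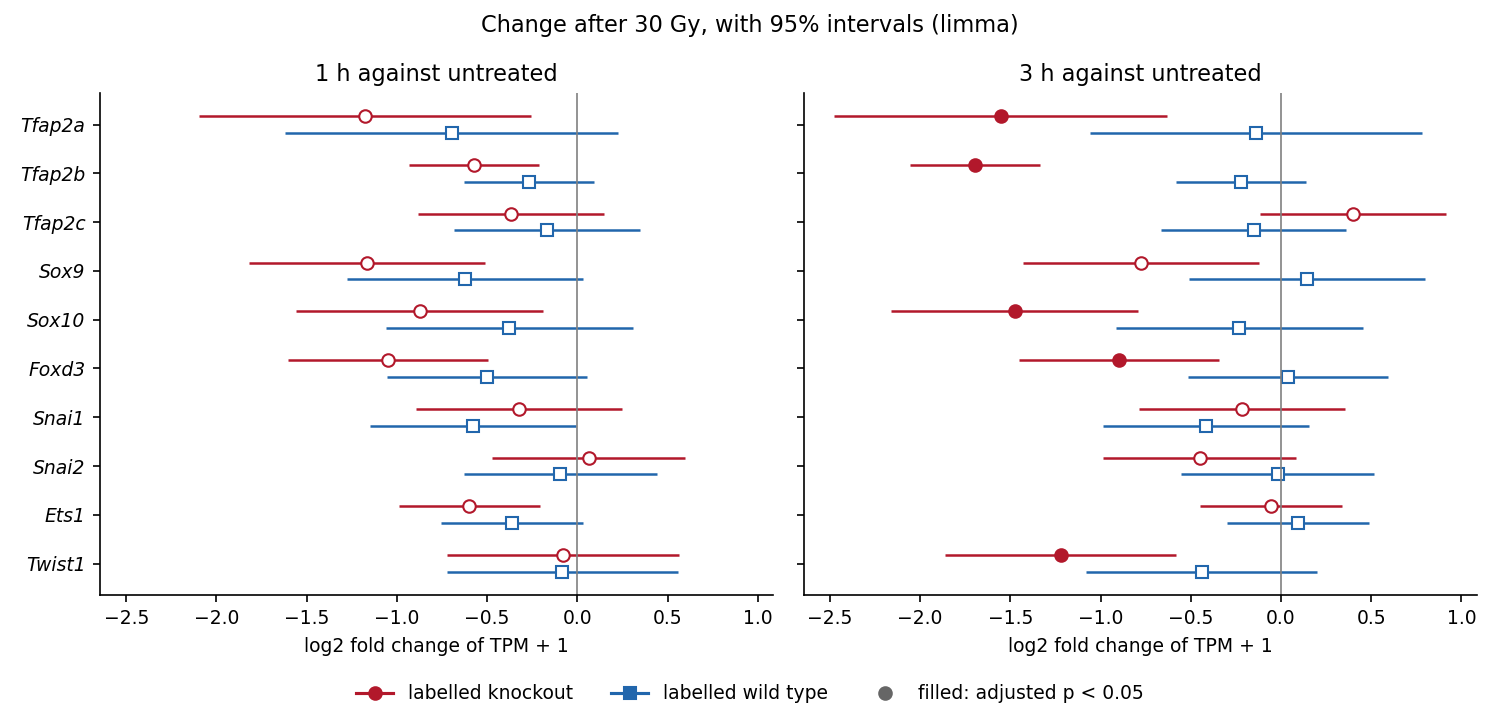
Log2 fold change of TPM + 1 at 1 h (left) and 3 h (right) against untreated for each factor, in the KO label (red circles, upper of each pair) and the WT label (blue squares, lower); bars are 95% intervals from limma and filled symbols have an adjusted p under 0.05. Filled symbols appear only at 3 h in the KO label, at Tfap2a, Tfap2b, Sox10, Foxd3 and Twist1, and at 1 h the points of both labels lie mostly left of 0.

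The promoter windows of 3 factors are shown because their transcripts differed in behaviour: Tfap2b and Twist1 fell at 3 h in the KO label, and Snai1 did not pass the test there. RefSeq windows of GRCm38.p6, from 250 bases before to 50 bases after the annotated start, were matched by symbol for 5 of the 10 factors, giving 6 windows (Tfap2b, Snai1, Foxd3, Twist1 and a pair for Tfap2a). The submitters' notes name the later build GRCm39 for the expression values, so these coordinates apply to GRCm38.p6 only. Each window reads 5′ to 3′ on the gene's strand. Capitals mark matches on either strand to the E-box CANNTG, the AP-2 motif GCCNNNGGC, the TATA motif TATAAA, the CCAAT box and the GC box GGGCGG.
Tfap2b, chr1:19211804-19212103, plus strand: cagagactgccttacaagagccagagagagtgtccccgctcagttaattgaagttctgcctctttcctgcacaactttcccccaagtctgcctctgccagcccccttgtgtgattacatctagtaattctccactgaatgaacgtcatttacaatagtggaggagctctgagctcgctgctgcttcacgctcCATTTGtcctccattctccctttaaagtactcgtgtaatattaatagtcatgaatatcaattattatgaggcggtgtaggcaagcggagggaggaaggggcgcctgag
Twist1, chr12:33957421-33957720, plus strand: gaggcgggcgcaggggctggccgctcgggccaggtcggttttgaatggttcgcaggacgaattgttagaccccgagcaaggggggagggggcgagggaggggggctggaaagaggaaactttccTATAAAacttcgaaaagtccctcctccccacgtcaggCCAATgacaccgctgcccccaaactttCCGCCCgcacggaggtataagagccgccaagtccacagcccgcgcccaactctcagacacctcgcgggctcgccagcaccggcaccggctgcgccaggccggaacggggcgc
Snai1, chr2:167537945-167538244, plus strand: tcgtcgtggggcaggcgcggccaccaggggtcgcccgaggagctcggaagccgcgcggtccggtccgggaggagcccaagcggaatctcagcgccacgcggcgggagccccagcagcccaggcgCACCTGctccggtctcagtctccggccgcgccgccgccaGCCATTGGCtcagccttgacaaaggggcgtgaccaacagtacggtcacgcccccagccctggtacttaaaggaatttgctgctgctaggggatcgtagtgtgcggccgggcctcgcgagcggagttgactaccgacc
In these letters Tfap2b held an E-box 58 bases before the start and none of the other 4 motifs, and its G and C content was 48.3%. Twist1 held the TATA motif 126 bases, a CCAAT box 89 bases and a GC box 62 bases before the start, with a G and C content of 66.0%. Snai1 held an E-box 126 bases before the start that also reads as the Snail-type form CACCTG, and an AP-2 motif 87 bases before the start that contains its CCAAT box, with a G and C content of 70.0%. Of 32851 mouse promoter windows of the same length, 72.3% held the E-box, 20.2% the Snail-type form (CAGGTG or CACCTG), 16.6% the AP-2 motif, 13.6% the TATA motif, 37.4% the CCAAT box and 35.7% the GC box. A p53 half-site pattern was in 0 of the 6 windows and in 8.36% of all windows. The SOX core ACAAT, on either strand, was in the Tfap2b and Twist1 windows and in 31.0% of all windows. These are descriptions of letters in short windows, not of binding.

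In the 4 libraries at 1 h, 6 of the 10 factors (Tfap2a, Tfap2b, Sox9, Sox10, Foxd3 and Ets1) were below all 4 untreated libraries, whereas 6.66% of all genes tested were, and none was above them (2.7% of all genes). In the KO label limma called 0 of the 10 at 1 h against untreated (0.103% of all genes called), with 6 at an unadjusted p under 0.05, against 9.06% of all genes. With the library number as a block Tfap2a (log2 fold change -1.18, adjusted p = 0.0497) and Sox9 (-1.16, adjusted p = 0.0212) were called lower there, against 0.914% of all genes. In the WT label limma called 0 of the 10 at 1 h (0% of all genes), with Snai1 at an unadjusted p under 0.05, and 0 with the block. The changes of 9 of 10 factors in the KO label and of 10 of 10 in the WT label lay below 0, with medians of -0.58 and -0.37 against -0.06 and -0.02 for all genes. The difference between the labels in the 1 h response was called for 0 of 10 factors (0.00644% of all genes called), with 0 at an unadjusted p under 0.05 and 0 with the block. The part of the high ribosomal protein share of the 1 h libraries numbered 2 in these values was not tested. The 11 posterior Hox genes listed, whose transcripts build up as the trunk extends, were also higher in sum at 1 h. They summed to 134 and 163 TPM in the KO label, against 25.5 and 35.0 TPM untreated. In the WT label the sums were 158 and 170 TPM, against 126 and 96.8 TPM untreated. Stage and time were thus not separable here, and the part of stage was not tested.

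In the KO label Tfap2b (log2 fold change -1.13, SE 0.158, limma adjusted p = 0.00288) and Twist1 (-1.14, SE 0.281, adjusted p = 0.0343) were lower at 3 h than at 1 h, against 11.2% of all genes called. With only the groups compared 0 were called, and the difference between the labels in this step was not tested. Twist1 lost that call without any 1 of 9 libraries, namely any of the 12 other than the WT-labelled 1 h pair and the KO-labelled 1 h library numbered 1, with adjusted p between 0.0553 and 0.167. With the block 5 factors were called (29.1% of all genes): Tfap2b, Twist1 and Sox10 (-0.60, adjusted p = 0.0431) lower, and Tfap2c (0.77, adjusted p = 0.0284) and Ets1 (0.54, adjusted p = 0.0154) higher at 3 h. In the WT label limma called 0 of 10 from 1 h to 3 h (0% of all genes), with Sox9 (0.76, 95% interval 0.11 to 1.42) and Ets1 (0.46, 0.06 to 0.85) at an unadjusted p under 0.05 and 0 with the block. The changes of 9 of the 10 factors lay above 0 there.

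At 3 h against untreated in the WT label, limma called 0 of the 10 (0% of all genes), with 0 at an unadjusted p under 0.05 and 0 with the block. The largest shifts were those of Twist1 (log2 fold change -0.44, 95% interval -1.08 to 0.20) and Snai1 (-0.41, -0.98 to 0.16), and the other 8 lay between -0.23 and 0.14. The 95% interval of Tfap2b was -0.58 to 0.14 here and -2.06 to -1.34 in the KO label, without overlap. Those of Sox10, -0.92 to 0.45 here and -2.16 to -0.79 in the KO label, overlapped. Without the block, the difference between the labels in the 3 h response of Sox10 was not called (-1.24, SE 0.4245, limma adjusted p = 0.188).

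Between the labels, 0 of 10 factors were called in untreated embryos (0.0193% of all genes called) and 0 at 1 h (0.0386%), each with 0 at an unadjusted p under 0.05 and 0 with the block. Trp53 stood at 265 and 79.1 TPM in the untreated KO-labelled libraries and at 114 and 211 TPM in the WT-labelled ones. The untreated comparison is thus between labels, not between groups of high and low Trp53. At 3 h Tfap2b was lower in the KO label than in the WT label (log2 fold change -1.33, SE 0.158, limma adjusted p = 0.00125), against 10.3% of all genes called, and this call held under all 21 alternative settings. With the block 7 of 10 were called, against 28.1% of all genes: Tfap2a, Tfap2b, Sox9, Sox10, Snai2 and Twist1 were lower and Tfap2c was higher in the KO label. Their fold changes were -1.12 for Tfap2a (block adjusted p = 0.00600), -0.81 for Sox9 (0.00609), -0.81 for Sox10 (0.0151), -0.77 for Snai2 (0.0160), -0.90 for Twist1 (0.0201) and 0.66 for Tfap2c (0.0493). Their adjusted p without the block lay between 0.0758 and 0.139.

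The 3 h response itself differed between the labels for Tfap2b: its fall against untreated was larger in the KO label by 1.48 on the log2 scale (difference -1.48, SE 0.224, limma adjusted p = 0.00953), against 3.45% of all genes called. The call was lost without the untreated library numbered 2 of the WT label (-1.34) and without its 3 h library numbered 1 (-1.39). It was also lost without both untreated libraries numbered 2 (-1.38). With the block 4 factors were called, against 13.4% of all genes: Tfap2a (difference -1.42, adjusted p = 0.0194), Tfap2b (adjusted p = 0.00180), Sox9 (-0.92, adjusted p = 0.0287) and Sox10 (-1.24, adjusted p = 0.0217).

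Against all 10 other libraries, the 3 h KO-labelled libraries were lower without overlap for Tfap2b, Sox10, Snai2 and Twist1, 4 of 10 factors, whereas 15.1% of all genes tested were. They were higher without overlap for Tfap2c, 1 of 10, a share near the 11% of all genes. The summed TPM of the 10 factors was 178 and 160 there, against 204 to 311 in the other 10 libraries. The same 3 h libraries were high in erythroid and low in neural tube transcripts: the 12 primitive erythroid markers summed to 16180 and 14970 TPM, against 2335 and 6657 TPM in the untreated libraries of that label, and the 12 neural tube progenitor markers to 196 and 227 TPM, against 600 and 655 TPM. Over the other 10 libraries the erythroid sum ran from 2335 to 13178 TPM and the neural tube sum from 431 to 655 TPM. The part of these cell types in the levels of the 10 factors was not tested. In KO-labelled libraries the 11 posterior Hox genes listed summed to 25.5 and 35.0 TPM untreated, 134 and 163 TPM at 1 h, and 39.1 and 39.7 TPM at 3 h. In WT-labelled libraries they summed to 126 and 96.8 TPM untreated, 158 and 170 TPM at 1 h, and 98.3 and 112 TPM at 3 h. Transcripts of these genes build up as the trunk extends, so the stage of these embryos and their group cannot be told apart.

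The library number, given in the labels, also moved with the factors. In the fit with the number as a block Tfap2a (log2 difference of libraries numbered 2 from those numbered 1, -0.58, adjusted p = 0.00619), Sox9 (-0.39, 0.00848), Snai1 (-0.33, 0.00861) and Sox10 (-0.38, 0.0232) were lower in libraries numbered 2, as were 11.5% of all genes, whereas 0 of 10 were higher, as were 31.4% of all genes. Each of these 4 factors was lower in the library numbered 2 in 6 of 6 groups. Snai2, Ets1 and Twist1 were higher in the library numbered 2 in 5 of 6 groups each, with adjusted p of 0.124, 0.163 and 0.123. What the number stands for is not stated.

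**Figure D4:**
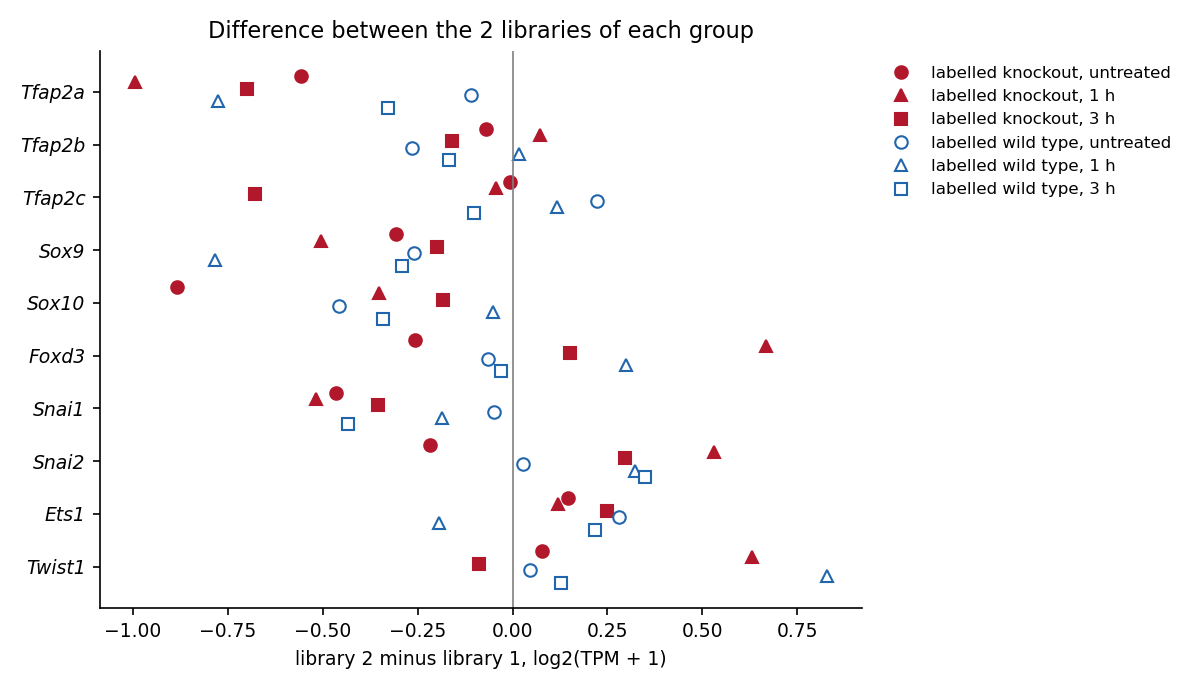
Difference between the 2 libraries of each group, library numbered 2 minus library numbered 1, in log2(TPM + 1), for each factor; red filled symbols are KO-labelled groups, blue open symbols WT-labelled groups, with circles for untreated, triangles for 1 h and squares for 3 h. All 6 points of Tfap2a, Sox9, Sox10 and Snai1 lie left of 0.

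Genes around the factors were read from 8 related lists at 3 h in the KO label against untreated, where limma called 12.1% of all genes tested and the fit with the library number as a block called 29.2%. Of 17 neural plate border genes 8 fell and none rose, with a median log2 fold change of -0.94. Gbx2, a homeobox gene of border and hindbrain, stood at 3.54 and 3.64 TPM at 3 h and 13.4 and 10.7 TPM untreated (-1.50, limma adjusted p = 0.00110), and Pax3, a paired-box factor of dorsal neural tube and crest, at 6.27 and 5.73 TPM and 18.6 and 14.4 TPM (-1.31, adjusted p = 0.00227). Dlx5, a homeobox gene of the border and branchial arches, fell as well (-1.94, adjusted p = 0.00482). The count of 8 was 4 without the untreated KO-labelled library numbered 2 and 5 without the other untreated library of that label or any 1 of the 4 libraries at 3 h.

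Of 19 inducing signals and receptors 3 fell and 2 rose (median -0.25), and with the library number as a block 8 fell and 2 rose, against 29.2% of all genes called with the block. Wnt1, the WNT ligand of the dorsal midline from which crest emerges, stood at 1.31 and 1.76 TPM at 3 h and 14.0 and 11.6 TPM untreated (log2 fold change -2.44, limma adjusted p = 0.000339). Fzd7, a WNT receptor, stood at 32.8 and 34.2 TPM at 3 h and 83.6 and 68.1 TPM untreated (-1.15, adjusted p = 0.00139), and was already lower at 1 h (-1.16, adjusted p = 0.0286), a call lost without any 1 of the 12 libraries. Nog, the BMP antagonist noggin, fell (-1.36, adjusted p = 0.00236). Wnt8a, a ligand of the posterior embryo at earlier stages, stood at 7.58 and 6.04 TPM at 3 h and 0.440 and 0.350 TPM untreated (2.48, adjusted p = 8.99e-05), and Notch1 rose too (1.31, adjusted p = 0.0285), but not without the untreated library numbered 1 or the 3 h library numbered 2 of the KO label.

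Of 20 genes of delamination and migration 6 fell and none rose (median -0.25). With the library number as a block 6 fell and 1 rose, against 29.2% of all genes called with the block. When only the compared groups were fitted, 1 of the list was called. Zeb2, a repressor of E-cadherin needed for crest delamination, stood at 8.57 and 11.3 TPM at 3 h and 36.3 and 34.6 TPM untreated (log2 fold change -1.75, limma adjusted p = 0.00144), and Cxcr4, a chemokine receptor, fell by 0.99 (adjusted p = 0.00303). Cdh11 and Nrp2, a cadherin and a semaphorin receptor of migrating crest, fell by 0.90 (adjusted p = 0.00790) and 0.83 (adjusted p = 0.00996). At 1 h Efnb2, an ephrin ligand, was the member of this list called (-1.09, adjusted p = 0.0286), and it lost that call without any 1 of the 12 libraries other than the WT-labelled 1 h pair. The count of 6 was 2 without the 3 h KO-labelled library numbered 1 and 3 without either untreated KO-labelled library. Cdh11 lost its call without the untreated library numbered 2 and Nrp2 without that numbered 1, and both without the 3 h library numbered 1 of that label.

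Genes of crest derivatives were read in 3 lists. Of 14 sensory and autonomic genes 8 fell (median -0.94), among them Neurog2 (log2 fold change -1.97, limma adjusted p = 0.000179), Eya1 (-1.82, adjusted p = 0.000780) and Neurog1 (-1.57, adjusted p = 0.00400), which are also expressed in the neural tube and placodes. The count of 8 was 5 without the untreated library numbered 2 or either 3 h library of the KO label. Of 21 genes of head and arch mesenchyme 9 fell and 1 rose (Gsc, goosecoid), with a median of -0.62. Among them Alx1 (-1.55, adjusted p = 0.00241) and Pdgfra (-1.60, adjusted p = 0.00720), needed for facial mesenchyme, and Dlx1 (-1.21, adjusted p = 0.0105) and Dlx6 (-1.55, adjusted p = 0.0129), which pattern the branchial arches, had the smallest p. The count of 10 called was 1 without the untreated KO-labelled library numbered 2, 3 and 4 without the 3 h KO-labelled libraries numbered 1 and 2, and 6 without any 1 of the other 5 untreated and 3 h libraries. Pdgfra, Dlx1 and Dlx6 each lost their call without the untreated KO-labelled library numbered 2 or 1 of the 3 h libraries of that label, Alx1 kept it without any single library. Gsc kept it only without the 3 h KO-labelled library numbered 1.

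Of 14 genes of migratory crest, glia and pigment cells 1 fell (Sox5, -1.17, limma adjusted p = 0.0376) and 1 rose (Foxo1, 0.90, adjusted p = 0.00903), with a median of -0.17. With the block, which called 29.2% of all genes, 4 fell and 1 rose. Of these 14 genes 0 were called without the untreated library numbered 2 or either 3 h library of the KO label and 1 without the other untreated library of that label or any 1 of the 4 untreated and 1 h libraries of the WT label. Of 13 chromatin and cofactor genes 3 fell (median -0.65), against 12.1% of all genes called, and with the block 8 fell, against 29.2%. The 3 called without the block were Cited2, a coactivator of AP-2 proteins (-1.20, adjusted p = 0.00427), Chd7, a chromatin remodeller (-0.86, adjusted p = 0.0149), and Kctd15, an inhibitor of AP-2 activity (-1.64, adjusted p = 0.0307). Of the list 1 was called without the untreated library numbered 2 or either 3 h library of the KO label. Chd7 lost its call without any 1 of the 4 untreated and 3 h libraries of that label, and Kctd15 without 3 of these and without either untreated WT-labelled library. Of 6 paralogs of the factors that were tested 0 were called (limma; 1 with the block), with Sox8, the third SoxE gene, at -0.73 (adjusted p = 0.0874). In the WT label at 1 h and at 3 h against untreated limma called 0 genes of all 15535 tested, and so 0 of each list.

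**Figure D5:**
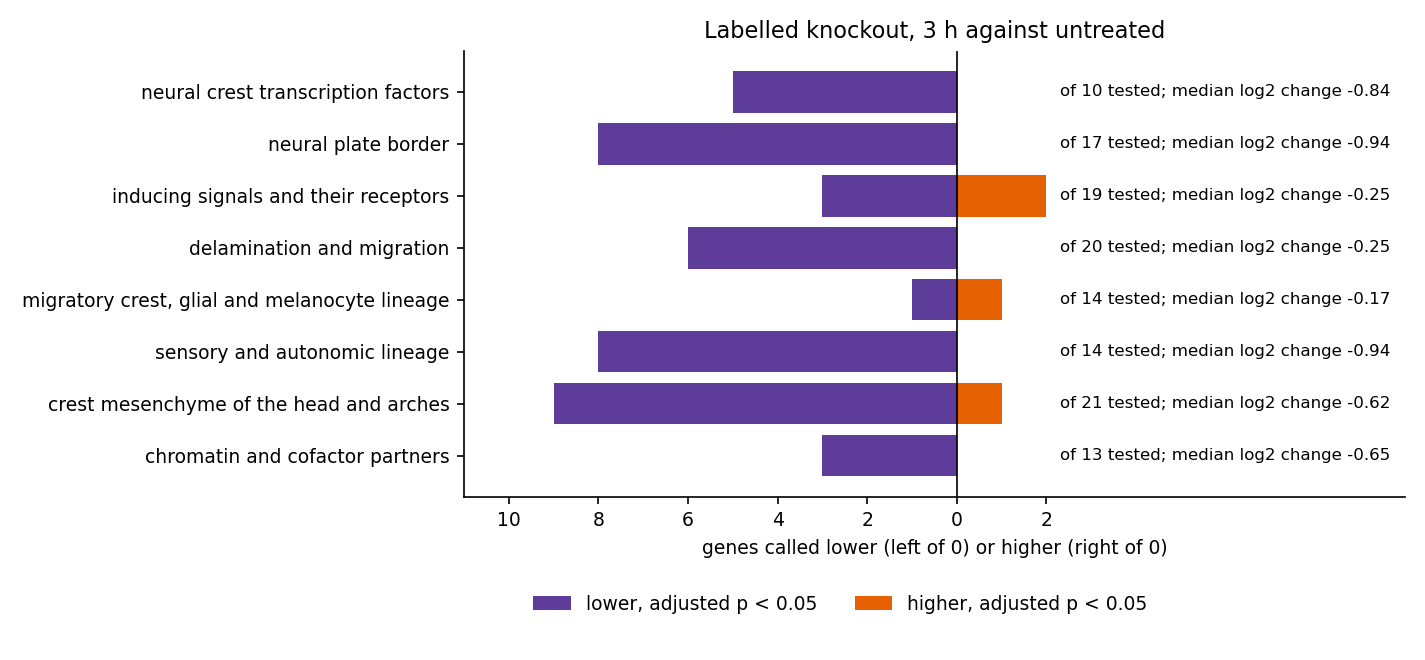
Number of genes called lower (purple, left of 0) or higher (orange, right of 0) at 3 h against untreated in the KO label, for the 10 factors and 7 related lists, with the number tested and the median log2 fold change of each list printed at the right. The bars run from 1 lower and 1 higher among migratory, glial and pigment genes to 9 lower and 1 higher among mesenchyme genes.

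The genes whose log2 values over the 12 libraries were most like the mean of the standardised values of the 10 factors, among genes with a mean of at least 5 TPM, were Fzd7 (Pearson r = 0.967), Apcdd1 (0.955), Cited2 (0.953), Foxi2 (0.946) and Ptch1 (0.938). Without both 3 h KO-labelled libraries their r was 0.972, 0.949, 0.971, 0.923 and 0.916. Ptch1, the hedgehog receptor, stood at 64.6 and 46.9 TPM untreated, 20.8 and 29.0 TPM at 1 h, and 20.6 and 19.4 TPM at 3 h in KO-labelled libraries. WT-labelled libraries held 55.9 and 45.3 TPM untreated, 35.0 and 32.1 TPM at 1 h, and 61.3 and 46.5 TPM at 3 h. Most like Sox10 were Irx1 (r = 0.952), Crabp1 (0.937) and Stc2 (0.936). All these points share their libraries, time and label, so the values describe likeness over 12 libraries in 6 groups only.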

How the data were processed

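Poly(A)-selected RNA of whole embryos was sequenced as 75 bp read pairs, per the labels' protocols. The authors deposited TPM values for 12 libraries and 53647 gene IDs, and the submitters' processing notes name STAR 2.7.3a, RSEM 1.3.3, HTSeq 0.12.3, DESeq2 1.42.1, R 4.3.3 and the build GRCm39, with no role or order. The strand setting and annotation release were not given in the sources used here. Symbols were matched for 52093 IDs (97.1%).

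Log2(TPM + 1) values of 15535 genes with at least 1 TPM in at least 2 libraries were fitted with limma 3.58.1 (R 4.3.3, all 6 groups, moderated with a mean trend), with Benjamini-Hochberg adjustment over these genes for each of 11 comparisons and a call at an adjusted p under 0.05. This scale understates the change of low genes. The fit was tested on simulated data. Same-numbered libraries departed together from the means of their groups (r from 0.327 to 0.796 over genes in all 15 pairs of groups), so the number, which comes from the labels, was fitted as a block in an alternative. Other alternatives were a pseudocount of 0.1, no filter, size factors, quantile normalization, no trend, the compared groups alone, each library left out, and both 1 h or both untreated libraries numbered 2 left out; the last was chosen after seeing the data. The genes named are the 10 factors, Trp53, the called genes of each list (at most 4 by p in related lists), and the genes most like the factors' mean or Sox10. Some genes that this rule names are not reported here. Notch1, Gsc and Mesp2 were named after their values were seen. The factors and lists were chosen with earlier results of these data known.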

Additional observations from a re-analysis of the deposited data

Results flagged for a closer look

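The response of Tfap2b at 3 h differed between the labels, by a test of the difference itself: -1.4766 on the log2 scale (KO label minus WT label, SE 0.224, limma adjusted p = 0.00953 over 15535 genes). Tfap2b was lower at 3 h than untreated within both library numbers in the KO label, at 4.81 TPM at 3 h against 17.2 TPM untreated in the libraries numbered 1 and at 4.20 against 16.4 TPM in those numbered 2. In the WT label the values were 13.6 against 16.6 TPM and 12.0 against 13.7 TPM. The difference lost its call without the untreated library numbered 2 (-1.34) or the 3 h library numbered 1 (-1.39) of the WT label. Without both untreated libraries numbered 2 it was -1.38 and not called.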

How the results depend on the processing

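Over the 21 alternative settings, 505 of the factors' recomputed fold changes kept their direction and side of the threshold, 52 lost a call, 25 gained one and 6 changed sign. These counts include changes that were not called in the main fit and so had no call to lose. The call at 3 h against untreated in the KO label held in 21 of the 21 settings for Tfap2b. It held in 17 for Sox10, 16 for Twist1, 8 for Tfap2a and 7 for Foxd3. The number of the 10 factors called at 3 h against untreated in the KO label was 3 without a filter, 2 without both untreated libraries numbered 2, 2 with only the groups compared, and 1 to 5 when any single library was left out, with Tfap2b among the calls each time. For 3 h against 1 h in the KO label it was 5 with the library number as a block, 1 without a filter, 1 without both untreated libraries numbered 2, 0 with only the groups compared, and 1 to 2 without any single library. Between the labels at 3 h it was 7 with the block, 2 with quantile normalization, 3 without both 1 h libraries numbered 2, and 1 to 2 without any single library. For the difference of the 3 h responses it was 4 with the block, 0 without both untreated libraries numbered 2 and 0 to 1 without any single library. At 1 h against untreated in the KO label it was 2 with the block. Apart from the counts given here with the block, the block moved none by over 1.5 times. Ets1 at 3 h against untreated in the KO label had a log2 fold change of -0.06, against 0.0773 with size factors, 0.0770 with quantile normalization and 0.0181 without both untreated libraries numbered 2, and ran from -0.1798 to 0.0687 without any single library; Snai1 ran from -0.4485 to 0.0163. Of the recounts of the related and marker lists 283 stayed within 1.5 times the reported count and 95 did not. Of the recomputed fold changes of genes named from those lists 594 kept their side of the threshold and 141 lost a call, with no change of sign; with only the groups compared, 0 of the neural plate border genes and 0 of the mesenchyme genes were called. The cause of these differences was not tested. Groups of 2 libraries and TPM values without depth limit what could be called.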
